A study of Homo sapiens with 15 samples.

Results

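The AP-1 transcription factor genes examined here are the 7 members of the FOS and JUN family, FOS, FOSB, FOSL1, FOSL2, JUN, JUNB and JUND, out of 57773 genes in the deposited counts. They were chosen by gene symbol, and each symbol matched 1 Ensembl identifier. All 15 libraries were made from femoral marrow of SCID-beige mice injected by vein with MM.1S cells. MM.1S, an established line from a human multiple myeloma, carried GFP and luciferase here, and SCID-beige mice lack working T and B cells and have weak NK cells. The 5 groups had 3 libraries each, from 5 mice treated per group. They received PBS (saline by vein) weekly, bortezomib at 0.25 mg/kg by weekly intraperitoneal injection, elesclomol at 25 mg/kg under the skin, both drugs (combination), or bortezomib with elesclomol begun 14 days after inclusion (delayed combination). Bortezomib is a proteasome inhibitor, while elesclomol binds copper and delivers it to mitochondria. Marrow was taken at paralysis, so the collection day was not set by time after a dose. The labels give no interval between the last dose and collection.

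AP-1 is a dimer of leucine zipper proteins that binds DNA and switches target genes on or off. JUN proteins pair with each other or with FOS proteins, while FOS proteins need a JUN partner. FOS, FOSB, JUN and JUNB are immediate early genes, transcribed within minutes of a growth factor or stress signal from unstable messages, and JUND is made more steadily. In plasma cell tumours AP-1 has been linked to cell growth and to the response to proteasome inhibitors.

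The promoters of the family are shown for JUN, FOS and FOSB, whose levels followed each other most closely across the libraries, and for JUND, which holds the full 8-base cyclic AMP response element. Windows of 250 bases ending at the base before the annotated start were taken from RefSeq on GRCh38.p14 and matched 6 of the 7 members by symbol. The counts themselves were made on GRCh37, and no coordinate was carried between the builds. Each window reads from 5′ to 3′ on the gene's strand. Capitals mark the motif matches.

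JUN, chr1:58784048-58784297, minus strand: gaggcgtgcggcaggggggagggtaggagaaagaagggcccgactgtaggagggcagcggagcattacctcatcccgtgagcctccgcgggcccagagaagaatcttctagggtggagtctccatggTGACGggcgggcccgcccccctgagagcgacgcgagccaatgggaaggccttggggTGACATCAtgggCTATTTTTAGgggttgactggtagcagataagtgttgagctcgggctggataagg

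FOS, chr14:75278578-75278827, plus strand: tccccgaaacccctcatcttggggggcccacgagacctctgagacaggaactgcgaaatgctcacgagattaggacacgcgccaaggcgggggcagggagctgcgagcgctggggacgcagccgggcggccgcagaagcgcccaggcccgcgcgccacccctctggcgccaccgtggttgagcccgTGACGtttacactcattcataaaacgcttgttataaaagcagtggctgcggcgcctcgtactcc

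FOSB, chr19:45467746-45467995, plus strand: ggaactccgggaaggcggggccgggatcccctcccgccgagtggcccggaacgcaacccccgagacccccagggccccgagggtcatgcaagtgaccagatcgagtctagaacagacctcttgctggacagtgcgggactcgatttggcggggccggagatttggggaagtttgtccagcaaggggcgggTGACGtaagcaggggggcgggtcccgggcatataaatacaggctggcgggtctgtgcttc

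JUND, chr19:18281623-18281872, minus strand: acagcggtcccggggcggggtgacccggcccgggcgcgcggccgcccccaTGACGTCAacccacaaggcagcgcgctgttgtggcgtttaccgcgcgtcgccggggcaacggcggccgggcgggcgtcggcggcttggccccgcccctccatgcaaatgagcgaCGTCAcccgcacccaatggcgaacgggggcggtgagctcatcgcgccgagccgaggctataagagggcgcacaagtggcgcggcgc

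The pentamer TGACG, the core that CREB and ATF proteins recognise, was present on either strand in 6 of 6 windows, against 21.2% of all 35116 windows of this length in the table. It begins 64 bases before the start in FOS, 60 in FOSB, 123 in JUN and 137 in JUNB. FOSL2 holds it 66 and 201 bases before its start. In JUND the palindrome TGACGTCA begins 200 bases before the start and contains the pentamer on both strands, and a further match lies at 86 bases. This palindrome was found in 1 of 6 windows and in 1.65% of all windows. JUN alone among the 6 held TGACATCA, at 67 bases, and a MEF2 site, at 55 bases, which occur in 2.37% and 1.75% of all windows. Neither the consensus AP-1 site TGANTCA (6.57% of all windows) nor a CArG box, the SRF recognition site (1.16%), was found in any of the 6 windows. Bases outside the windows were not searched, so a CArG box or AP-1 site farther before the start would have been missed. The absence of these sites therefore holds for the windows only, not for the whole promoters. All matches are letters in a window, not measured binding.

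Total counts per library ranged from 4500326 to 13161087, with the PBS libraries at 4500326 to 6287708 and the delayed combination at 11060930 to 13161087. Depth thus moved with the groups, and its part in the results was not tested. Levels are given as CPM (counts scaled to a common library size with TMM factors). Of 10 plasma cell markers 9 passed the filter on low counts, and their summed level was 12800 to 16100 CPM over all libraries. CD27 was the exception, at no more than 0.242 CPM in any library. In the elesclomol library numbered 1, granulocyte markers summed to 122 CPM and erythroid markers to 338 CPM, and the other 14 libraries did not exceed 28.6 and 37.5 CPM. The 9 stromal and bone markers, of which none was at 0 in every library of a group, summed to 104 to 134 CPM in PBS, 122 to 155 in bortezomib, 128 to 200 in elesclomol, 112 to 156 in the combination and 131 to 237 in the delayed combination. COL1A1, a bone matrix collagen, averaged 3.31 CPM in PBS and 30.8 CPM in the delayed combination. It averaged 22.1 CPM in bortezomib, 18.5 in elesclomol and 18.8 in the combination. RUNX2, LEPR and PDGFRB of the same list went the other way. They averaged 44.2, 8.18 and 3.87 CPM in PBS and 29.1, 7.15 and 3.33 CPM in the delayed combination. The remaining markers of the list had a higher mean in the delayed combination than in PBS. The 6 macrophage markers summed to 14.1 to 28.7 CPM in PBS and 11.3 to 65.3 CPM in the delayed combination, and MARCO was at 0 throughout. Because the tissue was sequenced in bulk, fewer cells of a type and less RNA per cell cannot be told apart. Of the 7 members, 6 had enough reads for testing among 13085 genes.

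JUN, the partner that most AP-1 dimers share, was the most abundant member. Its level was 432, 565 and 432 CPM in the PBS libraries 1, 2 and 3. Under bortezomib it was 251, 232 and 245 CPM, a narrow band below every PBS library. Elesclomol libraries held 140, 173 and 66.1 CPM. The combination gave 199, 87.8 and 57.4 CPM, and the delayed combination 79.6, 54.6 and 92.8 CPM. No treated library of any group reached the lowest PBS value, and every library with elesclomol, alone or with bortezomib, lay below every bortezomib library. Against the PBS mean of 476 ± 76.8 CPM (SD, n = 3), the mean was 242 ± 9.61 in bortezomib, 126 ± 54.6 in elesclomol, 115 ± 74.6 in the combination and 75.7 ± 19.4 in the delayed combination. The last of these is a 6.29-fold difference, or a log2 change of -2.65 ± 0.44 (SE), with a 95% interval of -3.61 to -1.70.

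FOS, the prototype of its family and a strict partner of JUN proteins, was measured at 209, 255 and 172 CPM in PBS. Bortezomib libraries overlapped that range, at 124, 176 and 127 CPM. With elesclomol FOS was at 63.6, 72.7 and 7.64 CPM, so that library 3 held far less than the other 2. The combination had 69.7, 21.1 and 9.71 CPM and the delayed combination 10.8, 15.3 and 30.8 CPM. All 9 libraries with elesclomol lay below all 6 without it, as for JUN. This held for 4 of 13085 genes (0.0306%), which were FOS, JUN, DUSP1 and RHOB, a count made after the values were seen. The log2 change from PBS was -2.15 ± 0.75 with elesclomol, -2.65 ± 0.77 with the combination and -3.48 ± 0.79 with the delayed combination. The last is 11.2-fold.

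FOSB, a close relative of FOS with the same induction by signals, was at 65.5, 95.8 and 65.6 CPM in PBS. In bortezomib libraries it was at 17.7, 59.1 and 23.9 CPM, all below PBS but spread widely. Elesclomol libraries had 17.5, 20.5 and 3.03 CPM. Combination libraries had 17.1, 5.99 and 4.22 CPM, and delayed combination libraries 3.59, 5.18 and 12 CPM. The log2 change was -2.49 ± 0.69, -3.02 ± 0.71 and -3.45 ± 0.71 in these 3 groups, 5.61-fold, 8.09-fold and 10.9-fold below PBS. Library 3 of elesclomol, which was lowest for FOS, was lowest for FOSB and JUN as well. Without it the log2 change with elesclomol was -1.64 for FOS, -2.00 for FOSB and -1.61 for JUN.

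**Figure D1:**
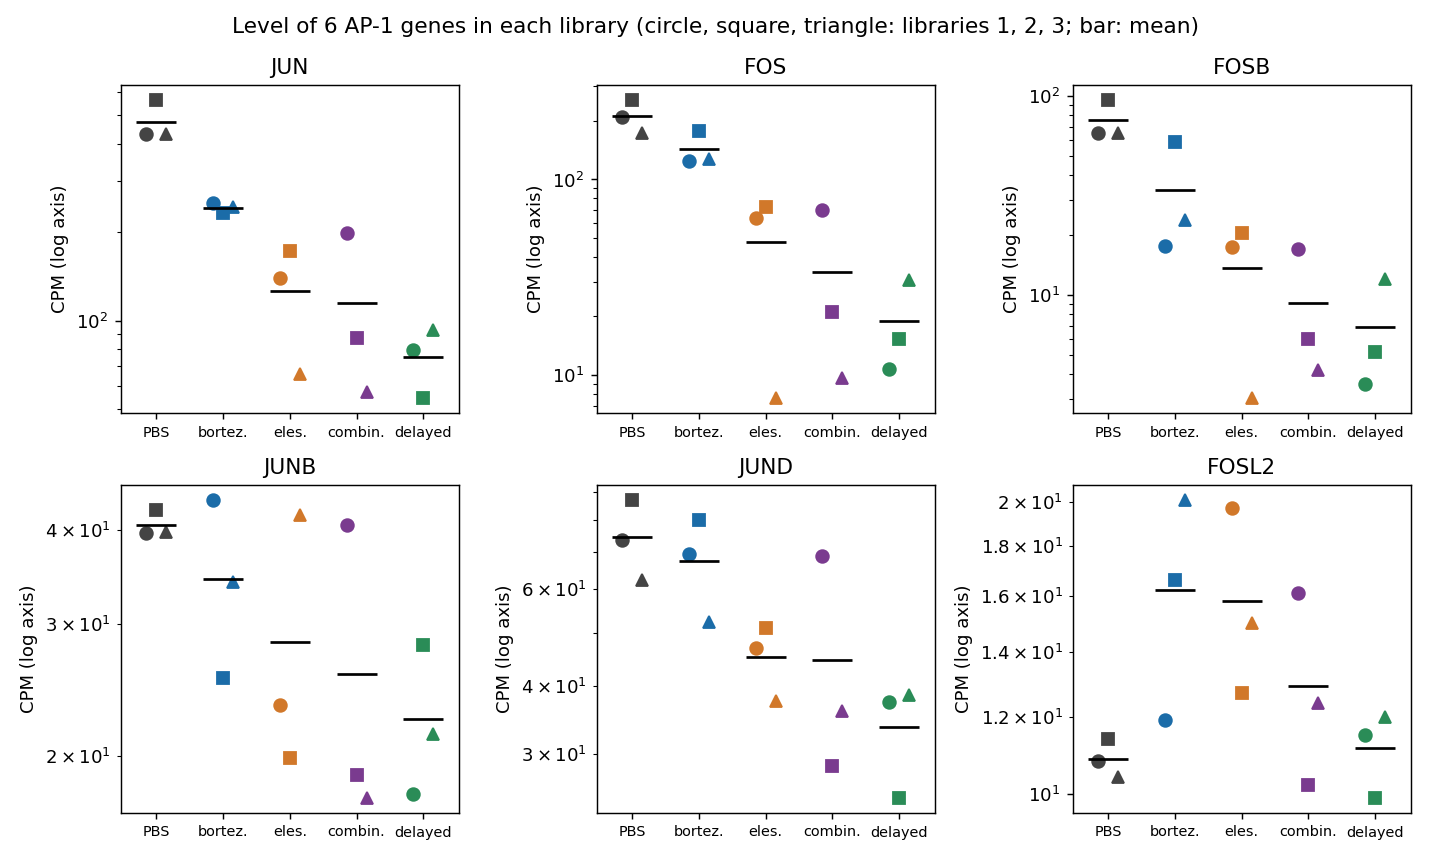
Each panel shows 1 AP-1 gene, with treatment group on the x axis and CPM on a log y axis; points are the 3 libraries of a group and bars their mean. JUN, FOS and FOSB reach their lowest group mean in the delayed combination (75.7, 19 and 6.91 CPM), while FOSL2 stays between 9.9 and 20.1 CPM throughout.

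JUND, the JUN protein found in resting cells, had a smaller range. It was at 73.8, 87.3 and 62.4 CPM in PBS and at 69.6, 80.3 and 52.3 CPM in bortezomib, which overlap. Elesclomol libraries held 46.8, 50.9 and 37.5 CPM. The combination had 68.9, 28.6 and 36 CPM, and its library 1 lay inside the PBS range. The delayed combination had 37.4, 25 and 38.5 CPM, a log2 change of -1.15 ± 0.29 or 2.22-fold. Thus JUND in elesclomol and in the delayed combination lay below PBS without overlap, and in the combination it did not.

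JUNB, which pairs with FOS proteins and often opposes JUN, was nearly constant in PBS at 39.6, 42.5 and 39.8 CPM. It was at 43.9, 25.4 and 34.1 CPM in bortezomib, 23.4, 19.9 and 41.9 CPM in elesclomol and 40.6, 18.9 and 17.6 CPM in the combination. In each of these groups 1 library stood within or just above the PBS range and the others below it. The delayed combination, at 17.8, 28.1 and 21.4 CPM, was the only group without overlap, with a log2 change of -0.86 ± 0.35. Library 3 of elesclomol, lowest for JUN, FOS and FOSB, was highest of its group for JUNB.

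FOSL2, which encodes the FOS-related protein FRA2 that lacks a strong activation domain, did not share this direction. PBS libraries held 10.8, 11.4 and 10.4 CPM. Bortezomib libraries held 11.9, 16.6 and 20.1 CPM and elesclomol libraries 19.7, 12.7 and 15 CPM, each above every PBS library, as were 10.5% and 9.55% of all genes. The log2 change was 0.56 ± 0.22 and 0.54 ± 0.22. With both drugs FOSL2 was at 16.1, 10.2 and 12.4 CPM, and with the delayed combination at 11.5, 9.9 and 12 CPM, both overlapping PBS. FOSL1, which encodes FRA1, had 7 reads over all 15 libraries, no more than 2 in any, and none in 9. In the shallowest library a count of 0 allows up to 0.667 CPM (3 reads, counting error only).

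None of these differences passed the main test, which was edgeR's quasi-likelihood F test at a Benjamini-Hochberg adjusted p under 0.05 over all 13085 genes. The smallest adjusted p of a member was 0.123, for JUN in the delayed combination, where JUN ranked 6 among all genes by p. JUN had an adjusted p of 0.204 with elesclomol and 0.158 with the combination in edgeR. FOSB had 0.372, 0.19 and 0.213, and FOS 0.503, 0.257 and 0.252, in elesclomol, combination and delayed combination. At an unadjusted p under 0.05, edgeR gave 2 of 6 members for bortezomib (JUN lower and FOSL2 higher), 5 for elesclomol, 4 for the combination and 5 for the delayed combination.

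The background of this test was nearly empty. In edgeR 0% of genes passed for bortezomib, the combination and the delayed combination against PBS (0 of 13085 each), and 0.0688% (9 genes) for elesclomol. Counts of genes at an unadjusted p under 0.05 were 1388, 1056, 1784 and 1447 for bortezomib, elesclomol, the combination and the delayed combination. All 3 treated libraries lay below all 3 PBS libraries for 2 of 6 members with bortezomib (9.61% of all genes), 4 with elesclomol (10.2%), 3 with the combination (10.9%) and 5 with the delayed combination (14.7%). The median log2 change of the 6 members was -0.40, -1.32, -1.40 and -1.90 in the same order, against 0.02, 0.00, 0.01 and 0.01 over all genes. These 4 comparisons share the 3 PBS libraries.

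**Figure D2:**
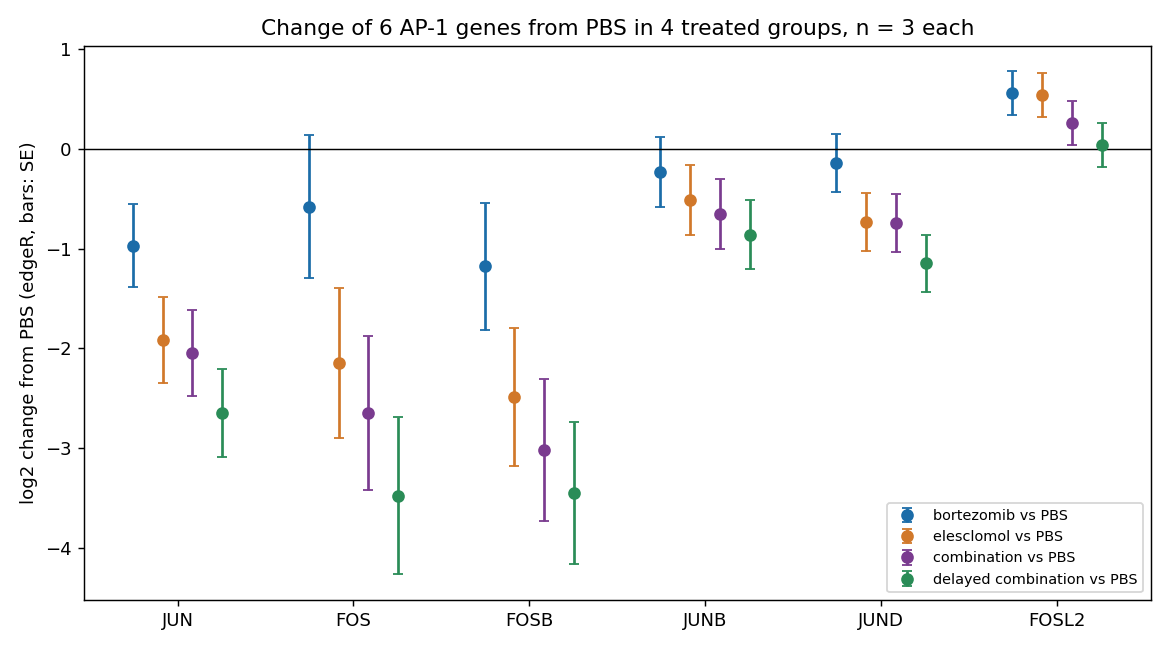
The y axis is the log2 change from PBS in edgeR with its SE, and the x axis the 6 tested AP-1 genes, for 4 treated groups of 3 libraries. FOS, FOSB and JUN lie farthest below 0, to -3.48, -3.45 and -2.65 in the delayed combination, and FOSL2 lies at or above 0.

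The result of the test depended on the tool. DESeq2 called 0 members for bortezomib (0.0688% of all genes) and 1 for elesclomol (0.374%), which was JUN at an adjusted p of 3.96e-04. For the combination DESeq2 called JUN (adjusted p = 3.18e-04) and FOSB (adjusted p = 0.0202), with 0.39% of genes called. For the delayed combination, also with 0.39% called, DESeq2 called JUN (adjusted p = 1.83e-08), FOSB (0.00377), FOS (0.00596) and JUND (0.0217), all lower. limma voom with sample quality weights called 2 members for bortezomib, FOSB lower and FOSL2 higher, where 5.48% of genes passed. It called FOSB and JUN for elesclomol (0.39% of genes), all of the 6 but FOSL2 for the combination (10.8%), and FOS, FOSB, JUN and JUND for the delayed combination (1.2%). For bortezomib and the combination the voom background was high. The log2 change of FOS in the combination was -3.97 in voom with these weights and -2.65 in edgeR.

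The 2 drugs and their combination form a factorial design, which lets the presence of elesclomol be compared over 6 against 6 libraries, with and without bortezomib. JUN averaged 121 ± 58.8 CPM with elesclomol and 359 ± 137 CPM without it (SD, n = 6 each), a log2 change of -1.50 ± 0.30, and the 2 sets did not overlap. FOS was at 40.7 ± 31.1 against 177 ± 50 CPM (log2 change -2.11 ± 0.53), again without overlap, and FOSB at 11.4 ± 7.78 against 54.6 ± 29.2 CPM (-2.16 ± 0.49). Of all genes 0.0688% lay lower in this way without overlap. JUND had a log2 change of -0.66 ± 0.21, JUNB of -0.46 ± 0.25 and FOSL2 of 0.12 ± 0.15. In edgeR the adjusted p was 0.466 for JUN, 0.513 for FOSB and 0.732 for FOS, no member and 0% of genes passed, and 4 members and 483 genes had an unadjusted p under 0.05. DESeq2 called JUN (adjusted p = 7.07e-05) and FOSB (0.0363) among 0.145% of genes, and voom called FOS, FOSB and JUN among 0.245%. Without library 1 of the combination, JUN passed in edgeR, with a log2 change of -1.83 and an adjusted p of 0.0227.

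For bortezomib over 6 against 6 libraries the log2 changes were smaller, from -0.85 ± 0.49 for FOSB and -0.55 ± 0.29 for JUN to 0.14 ± 0.15 for FOSL2. No member and 0% of genes passed edgeR, and 0 members against 1914 genes had an unadjusted p under 0.05. The interaction, which asks whether elesclomol acts differently in the presence of bortezomib, was 0.84 ± 0.59 for JUN, 0.65 ± 0.97 for FOSB and 0.08 ± 1.03 for FOS. The 95% interval for FOS ran from -2.17 to 2.33, so that a sizeable difference in either direction was not detectable. FOSL2, which was above PBS with each drug alone and overlapped PBS with both, had an interaction of -0.84 ± 0.30 (edgeR adjusted p = 0.465). In edgeR 1 gene passed the interaction (0.00764%), the histone deacetylase gene HDAC9, which is no member and is named after its values were seen. Of the members 1, FOSL2, and of all genes 1150 had an unadjusted p under 0.05.

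Adding elesclomol late to bortezomib was compared with bortezomib alone. FOS was 7.48-fold lower in the delayed combination (log2 change -2.90 ± 0.78), FOSB 4.81-fold (-2.27 ± 0.70), JUN 3.2-fold (-1.68 ± 0.42) and JUND 2.01-fold, each without overlap of the 3 and 3 libraries. JUNB (-0.62 ± 0.35) and FOSL2 (-0.53 ± 0.21, edgeR unadjusted p = 0.0219) were also lower, with overlap. In this comparison 3.85% of all genes lay lower without overlap. In edgeR no member and 0% of genes passed, with 5 members and 460 genes at an unadjusted p under 0.05, while DESeq2 called JUN (adjusted p = 0.028). Between the delayed and the immediate combination all 6 log2 changes were negative, from -0.83 ± 0.75 for FOS to -0.21 ± 0.35 for JUNB, and the libraries of every member overlapped. Again 0% of genes and no member passed edgeR, and 344 genes had an unadjusted p under 0.05. Without library 1 of the combination, the difference for FOS, FOSB, JUN, JUNB and JUND had the opposite sign.

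That library was the highest of its group for all 6 members. With bortezomib library 1 and delayed combination library 2 it was also among the 3 richest in GC-rich transcripts, with correlations across genes between GC content and relative level of 0.49, 0.51 and 0.32, against -0.35 to 0.16 in the other 12. The transcripts of the members contain 52.6% GC in FOS to 69.7% in JUND. Without combination library 1 the log2 change of the combination against PBS was -2.71 ± 0.38 for JUN (edgeR adjusted p = 0.0863), -3.78 ± 0.85 for FOS and -1.20 ± 0.23 for JUND. With a correction for GC content and length, JUN stood at -1.97 with elesclomol (edgeR adjusted p = 0.182). Across the 15 libraries, the correlation with the GC measure ran from -0.46 for FOSB to 0.27 for JUNB, and that with the mean level of 19 host cell markers from -0.29 for JUND to 0.50 for FOSL2. These are descriptions over libraries that share groups and depth. With the host level as a covariate the log2 change of JUN with elesclomol was -1.58 ± 0.52. With the delayed combination it was -2.58 ± 0.44 with that covariate. The covariate averages all 19 host markers, at 1.98 to 2.77 log2 CPM there and 2.11 to 2.25 in PBS. It is not a measure of the stromal and bone markers alone, which summed highest in the delayed combination. The part of host cells in the member values was not tested beyond this.

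Levels of different genes were compared per kilobase of exon, as RPKM. In PBS the order was JUN at a mean of 135 RPKM, FOS at 65.5, JUND at 40, JUNB at 22.3, FOSB at 13.6, FOSL2 at 1.52 and FOSL1 at 0.0268, and no 2 neighbours overlapped between libraries. In bortezomib JUN (68.5 RPKM) stood above FOS (43.9) and JUND (36.2), and the last 2 overlapped. In elesclomol the order was JUN at 35.7 RPKM, JUND at 24.2, JUNB at 15.6, FOS at 14.8, FOSB at 2.46 and FOSL2 at 2.21, and all neighbours overlapped. In the combination JUN (32.4 RPKM), JUND (23.9), JUNB (14.1) and FOS (10.3) overlapped from one neighbour to the next. FOSL2 (1.8) and FOSB (1.64) overlapped each other. FOSL2 lay below FOS without overlap. FOSB reached 3.07 RPKM, just above the lowest FOS library at 3 RPKM. In the delayed combination FOS had moved to the fourth place at 5.86 RPKM, below JUN at 21.4, JUND at 18 and JUNB at 12.3, without overlap with JUNB. FOSL2 at 1.55 and FOSB at 1.24 RPKM overlapped.

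The makeup of the family differed accordingly. Summed over its members, the family reached 244 to 328 RPKM in PBS, 162 to 190 in bortezomib, 66.8 to 115 in elesclomol, 50.8 to 143 in the combination and 51.3 to 72 in the delayed combination. FOS and FOSB made up 26.5% to 29.4% of that sum in PBS and 6.88% to 16.2% in the delayed combination. JUNB and JUND together made up 21.4% to 23.5% in PBS and 45% to 56.2% in the delayed combination. JUN held 46.7% to 50.1% in PBS and 30.1% to 38.8% in the delayed combination. In elesclomol FOS and FOSB held 22.7% and 22.2% in 2 libraries and 4.35% in the library 3 named above.

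**Figure D3:**
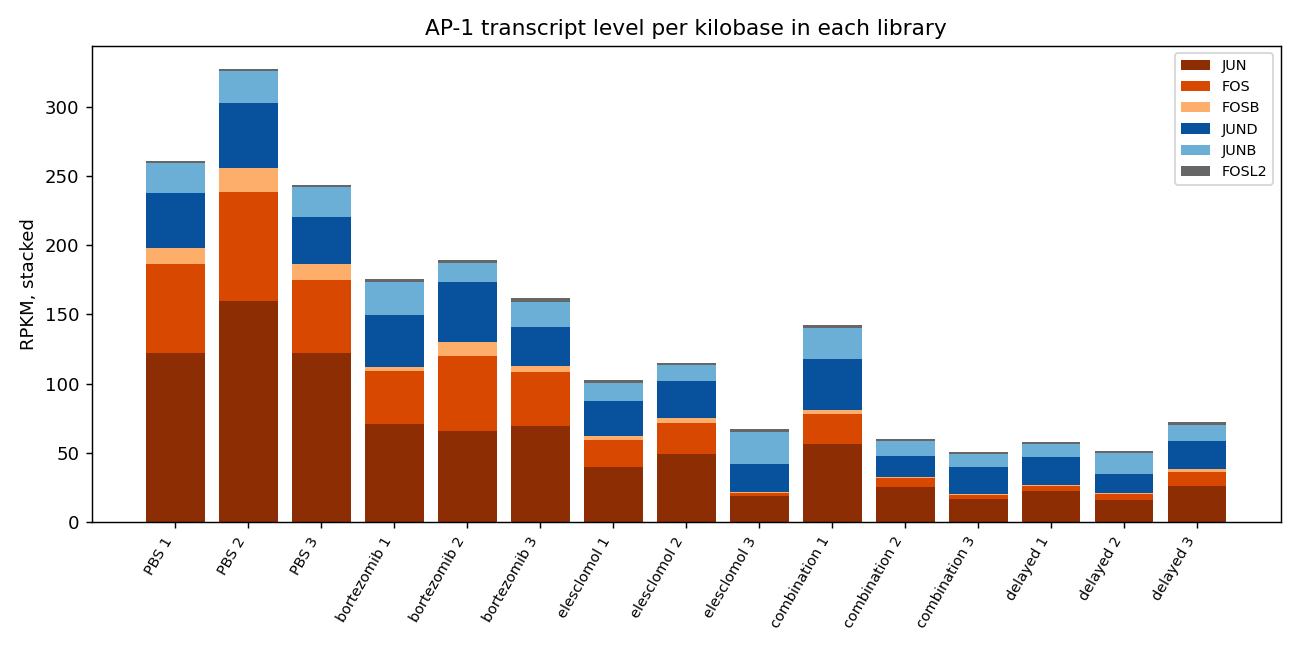
Bars are the 15 libraries and their height is the summed RPKM of the AP-1 genes, stacked by gene. The sum is 244 to 328 RPKM in PBS and 51.3 to 72 RPKM in the delayed combination, where JUND and JUNB fill 45% to 56.2% of the bar.

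Members differed in how closely they followed each other across the 15 libraries. Pearson's r of log2 CPM was 0.97 for FOS with FOSB, 0.96 for FOS with JUN, 0.95 for FOSB with JUN and 0.90 for JUN with JUND. After the group means were removed these were 0.94, 0.90, 0.79 and 0.76. JUNB had r of 0.62 with JUN and 0.53 with FOS, and 0.09 and -0.06 within groups. FOSL2 had r between 0.06 and 0.24 with the 5 others. The correlations describe 15 libraries that share treatments and depth, and carry no test.

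The genes most like each member were sought among 8361 genes by the same measure over 15 libraries. DUSP1, a phosphatase that shuts off MAP kinases, had r of 0.97 with FOS, 0.94 with FOSB and 0.94 with JUN. EGR1, a zinc finger factor induced with FOS, had 0.96, 0.94 and 0.95. PPP1R15A, the stress-induced subunit of an eIF2α phosphatase, followed for FOS (0.92) and led for JUND (0.91). RHOB, an immediate early small GTPase, led for JUN (0.96) and came next for JUND (0.90), and OTUD1, a deubiquitinase, was the third for FOSB (0.91) and for JUND (0.88). For JUNB the nearest were HSPB1, a small heat shock protein (0.87), and HLA-DPA1, an MHC class II chain (0.83). For FOSL2 they were SFSWAP, a splicing regulator (0.87), PCBP1, an RNA-binding protein (0.86), and CHERP (0.84).

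Other immediate early genes were read from a list of 15, of which 13 were tested. With elesclomol 12 of the 13 had a log2 change below 0, with a median of -0.95 against 0.00 over all genes, and 1 passed edgeR. That gene, PHLDA1, which encodes a pleckstrin homology-like protein, fell from 96.5 ± 9.02 to 39.6 ± 4.78 CPM with elesclomol (log2 change -1.29 ± 0.17, edgeR adjusted p = 0.00574). With bortezomib alone it was at 66.2 ± 15.3 CPM (-0.54 ± 0.16, edgeR adjusted p = 0.419). It was at 72.9 ± 13.2 CPM in the combination (-0.41 ± 0.16) and 64.3 ± 1.92 CPM in the delayed combination (-0.59 ± 0.16). The delayed combination against bortezomib gave -0.05 ± 0.16. Its interaction was 1.42 ± 0.23 (edgeR adjusted p = 0.0655). Its lowest group mean was thus with elesclomol alone, while JUN, FOS and FOSB were lowest in the delayed combination. For elesclomol against PBS it passed in 15 of 18 alternatives. It did not pass with the host level as a covariate (adjusted p = 0.0865), without PBS library 3 (0.0532) or without elesclomol library 3 (0.0516). IER2 was at 20.9 ± 3.33 CPM in PBS and 7.73 ± 1.25 CPM in elesclomol (edgeR adjusted p = 0.0573), and EGR1 at 77.3 ± 14.7 and 11.7 ± 7.83 CPM (edgeR adjusted p = 0.227). With bortezomib alone IER2 was at 11.8 ± 2.99 CPM and EGR1 at 41.4 ± 5.23 CPM. These 2 were chosen after their values were seen. In the delayed combination 12 of 13 had a log2 change below 0 with a median of -1.39, in the combination 12 with a median of -0.42, and in bortezomib 11 with a median of -0.17, and none of these passed. Among the 13, ZFP36 with elesclomol (0.05) and IER5 with the delayed combination (0.43) lay above 0.

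Lists of genes that act before or beside AP-1 had medians near that of all genes, with members on both sides of it. None of 8 tested bZIP partners passed edgeR in any comparison, and their median log2 change was -0.07 with elesclomol and 0.01 with the delayed combination. ATF3, a stress-induced partner of JUN, was at 8.97 ± 2.25 CPM in PBS, 6.13 ± 1.13 in bortezomib and 4.61 ± 1.44 in elesclomol. It was at 4.04 ± 1.46 CPM in the combination and 3.33 ± 1.78 CPM in the delayed combination, the last a log2 change of -1.44 ± 0.35 (edgeR adjusted p = 0.252). ATF7, a CREB-like partner, had log2 changes of -0.09 and -0.27 with elesclomol and the delayed combination. None of 15 tested kinases of the MAP kinase cascades passed, with medians of -0.04 and 0.01. MAP3K5, a kinase that responds to oxidants, was at 53.1 ± 4.86 CPM in PBS and 34.8 ± 6.95 CPM in the delayed combination (edgeR adjusted p = 0.307). MAP2K6, which activates p38, was at 12.9 ± 0.667 CPM in PBS and 8.95 ± 1.33 CPM in elesclomol (edgeR adjusted p = 0.485). With bortezomib alone MAP3K5 was at 38.6 ± 5.96 CPM and MAP2K6 at 9.42 ± 2.17 CPM (edgeR adjusted p = 0.449 and 0.457).

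The 10 factors that act on the FOS and JUN promoters likewise had none that passed, with median log2 changes of 0.02 with elesclomol and -0.07 with the delayed combination. SRF, which binds the CArG box, was at 42 ± 2.41 CPM in PBS and 32.9 ± 2.58 CPM in elesclomol, without overlap (edgeR adjusted p = 0.589). MEF2D, which binds MEF2 sites, was at 109 ± 6.51 CPM in PBS and 141 ± 18.8 CPM in elesclomol, also without overlap and in the other direction (edgeR adjusted p = 0.46). With elesclomol 10.2% of all genes lay lower than PBS without overlap and 9.55% higher. MEF2D was also above every PBS library in bortezomib (143 ± 14.9 CPM) and the combination (134 ± 11.3 CPM). SRF overlapped PBS in both, at 39.9 ± 8.58 and 38.5 ± 6.89 CPM. Of the 8 genes for turnover of FOS and JUN proteins, TRIB1, an adaptor for the COP1 ligase, was at 268 ± 66.1 CPM in PBS and 147 ± 9.93 CPM in the delayed combination (edgeR adjusted p = 0.379). No turnover gene passed in edgeR.

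AP-1 target genes did not share the direction of the family. Of 20 listed, 13 were tested, and 8 with elesclomol and 10 with the delayed combination had a log2 change above 0, with medians of 0.17 and 0.20. No target passed in edgeR in any of the 9 comparisons. Single targets lay far from 0 in both directions. DUSP1 was at 182 ± 40.9 CPM in PBS, 74.3 ± 51.7 in elesclomol, 36.2 ± 20.8 in the combination and 31.3 ± 5.46 CPM in the delayed combination (log2 change -2.53 ± 0.53, edgeR adjusted p = 0.213). VEGFA, an angiogenic factor, was at 23.2 ± 3.87 CPM in PBS, 15.8 ± 0.915 in elesclomol and 22.8 ± 2.19 CPM in the delayed combination. Of the targets above 0, TNC, a matrix protein, had log2 changes of 1.03 ± 0.60 with elesclomol and 2.11 ± 0.55 with the delayed combination (edgeR adjusted p = 0.268). MMP9, a matrix protease, had 1.46 ± 0.77 and 0.79 ± 0.77, and SPP1, osteopontin, 0.17 ± 0.65 and 1.30 ± 0.57. These 3 were chosen after their values were seen. Their levels were low, with PBS means of 1.3 CPM for TNC, 2.57 CPM for MMP9 and 1.29 CPM for SPP1. MMP9 in elesclomol was at 7.14 ± 6.24 CPM, an SD nearly as large as the mean. The part of host cells in these values was not tested.

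**Figure D4:**
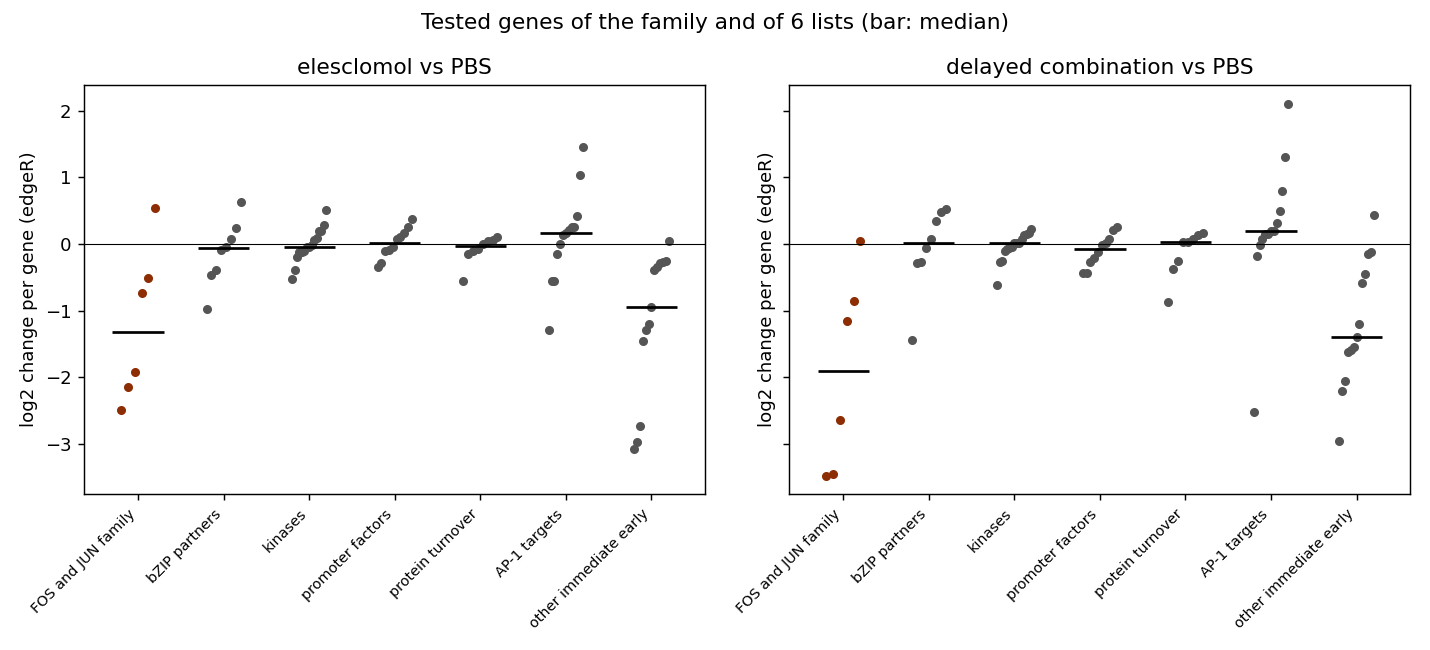
Points are single tested genes and bars the median of a list, with log2 change in edgeR on the y axis, for elesclomol (left) and the delayed combination (right) against PBS. The FOS and JUN family (medians -1.32 and -1.90) and the other immediate early genes (-0.95 and -1.39) lie lowest, while the medians of the other 5 lists lie between -0.07 and 0.20.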

How the data were processed

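Total RNA of 15 marrow samples was sequenced with a stranded, ribosome-depleted kit, per the labels' protocols. Per the submitters' processing notes, the authors used STAR 2.5.4b, featureCounts 1.6.1 and GRCh37, and they deposited raw counts of reads for 57773 Ensembl identifiers. Not given in the sources used here are the strand setting, the annotation release and the treatment of mouse reads, so reads of antisense or conserved mouse transcripts cannot be told apart from human ones. GENCODE 29, used only for names, length and GC content, named 52338 genes.

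Samples were grouped by title. Genes were kept by filterByExpr (minimum count 10), and 9 comparisons were fitted in 1 edgeR 4.0.16 model (R 4.3.3, TMM, robust quasi-likelihood F test, common biological coefficient of variation 0.171). CPM and RPKM use TMM-scaled library sizes, and log2 CPM for correlations a prior count of 2. Alternatives were DESeq2 1.42.0, limma 3.58.1 voom, other filters, scalings and sample sets. The code was tested on simulated counts. Plots used Python 3.11.15 and matplotlib 3.10.9. Libraries of a group differed by more than sampling noise. The chi-square per degree of freedom was 2.25 to 3.24 between PBS libraries and 5.62 to 27.2 between libraries of a treated group. By this measure the PBS libraries, shared by the comparisons against PBS, were closer to each other than those of any treated group.

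All members were named. From each list, genes past the threshold were named, up to 4, or otherwise the 2 with the smallest p for elesclomol over 6 against 6 libraries, and the 3 genes most like each member. Some genes that this rule names are not reported here. Members and lists were chosen with earlier results of these data known. Replicate numbers are shared between groups, but the labels give no source for a pairing. Same-numbered libraries deviated together in all 3 pairs (correlations 0.655, 0.523 and 0.118) only between bortezomib and the combination. Both groups enter the comparisons over 6 against 6 libraries and the interaction, where the main model treats libraries as independent. With replicate number as a block, JUN stood at -1.57 ± 0.29 for elesclomol over 6 against 6 (edgeR adjusted p = 0.339). Its interaction was then 0.79 ± 0.57.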

Additional observations from a re-analysis of the deposited data

How the results depend on the processing

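Of 1080 log2 changes of members recomputed under the alternatives, 1002 kept their direction and their side of the threshold, 33 passed where they had not, and 45 changed sign, of which 21 came from leaving out 1 library. With edgeR as the main test no member passed in any comparison. DESeq2 called 1 member for elesclomol, 2 for the combination, 4 for the delayed combination, 2 for elesclomol over 6 against 6 libraries and 1 for the delayed combination against bortezomib. limma voom called 2 for bortezomib, 2 for elesclomol, 5 for the combination, 4 for the delayed combination, 3 for elesclomol and 1 for bortezomib over 6 against 6 libraries, and 1 (FOSL2) for the interaction. Without a filter on low counts 1 member passed for the delayed combination, JUN. With only the groups compared in the fit 1 passed for elesclomol, JUND, and 1 for the delayed combination, JUN. Without the 3 GC-rich libraries 1, JUND, passed for elesclomol over 6 against 6, and leaving out each library in turn gave 0 to 1 there and 0 in the other 8 comparisons. The cause was not tested. Over all genes, the count past the threshold against PBS ranged over the alternatives from 0 to 717 for bortezomib, 1 to 142 for elesclomol, 0 to 1407 for the combination and 0 to 193 for the delayed combination.

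With the replicate block no call of a member changed; JUN stood at -1.97 with elesclomol (edgeR adjusted p = 0.236) and -2.63 with the delayed combination (0.167). The values that changed sign were as follows. For the delayed against the immediate combination, voom gave 0.69 for FOS, 0.60 for FOSB, 0.22 for JUN and 0.19 for JUNB, and without the 3 GC-rich libraries these were 0.45, 0.62, 0.25 and 0.11, with 0.06 for FOSL2 and 0.23 for JUND. Leaving out each library gave -1.38 to 0.31 for FOS, -1.10 to 0.46 for FOSB, -0.91 to 0.07 for JUN, -0.41 to 0.31 for JUNB and -0.63 to 0.06 for JUND, the highest always without combination library 1. For the interaction, voom gave -0.58 for FOS and -0.23 for JUNB. The host level as a covariate gave -0.30 for FOS, -0.16 for JUNB and -0.25 for JUND, and the set without GC-rich libraries -1.14 for FOS, -0.53 for FOSB, -0.19 for JUNB and -0.31 for JUND. Leaving out each library gave -1.06 to 0.52 for FOS, -0.22 to 1.36 for FOSB, -0.42 to 0.50 for JUNB and -0.34 to 0.36 for JUND. For FOSL2, the delayed combination against PBS was -0.00 with the host level as a covariate, -0.01 with the GC and length correction, -0.03 with that correction and the replicate block, and -0.02 to 0.11 with a library left out. FOSL2 over 6 against 6 for elesclomol was -0.02 in voom and -0.07 without the GC-rich libraries. JUND with bortezomib against PBS ran from -0.29 to 0.01, and for bortezomib over 6 against 6 JUNB ran from -0.44 to 0.01 and JUND from -0.31 to 0.02 with a library left out. PHLDA1 with elesclomol ran from -1.36 to -1.17 over its 18 alternatives, which were applied to it after its values were seen. Depth limited FOSL1; the lowest level of a tested member in any library was 3.03 CPM, for FOSB in elesclomol library 3.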
